A study of Mus musculus with 4 samples.

Results

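Kinesins, centromere proteins and mitotic kinases were read across 4 RNA sequencing libraries of sorted mouse lung tumour cells. Members were chosen by symbol alone: every gene whose symbol starts with Kif and a digit or with Cenp and a letter, Aurka and Aurkb, the numbered Plk genes, Bub1, Bub1b and Bub3, and 10 genes of cell division named singly (Mki67, Top2a, Cdk1, Ccnb1, Ccnb2, Ccna2, Cdc20, Birc5, Tpx2 and Ndc80). This gave 70 of the 17746 gene symbols in the authors' table. By role, 49 of them serve cell division, 4 are the cargo motors Kif1a, Kif5a, Kif5b and Kif5c, 14 are other kinesins, and 3 are polo-like kinases with main roles outside mitosis.

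Kinesins are motors that move along microtubules. Some carry vesicles and organelles, while others build the spindle, move chromosomes or complete cytokinesis. Chromosomes attach to the spindle at the kinetochore, which is assembled on nucleosomes that hold the histone variant CENP-A. Cyclin-dependent kinase, the Aurora kinases and polo-like kinase drive entry into mitosis and spindle assembly, and the checkpoint kinases delay anaphase until every chromosome is attached. Transcripts of these genes accumulate late in the cell cycle, so their level in a bulk sample is often read as a sign of proliferation. Kif1a and Kif5c are best known from neurons, whose axonal transport they serve, and small cell lung cancer is a neuroendocrine tumour.

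The mice carried conditional alleles of Rb1 and Trp53 (Rb1fl/fl; Trp53fl/fl), a model of small cell lung cancer, together with the knocked-in autophagy probe GFP-LC3-RFP-LC3ΔG. Its GFP part is degraded by autophagy and its RFP part stays in the cytosol. Live cells of the tumours that were positive for EpCAM and RFP were sorted into a GFP-positive and a GFP-negative group, with 2 libraries each. All 4 libraries thus share the tumour genotype, the probe and the gate, and the groups were sorted apart by the GFP signal. The sources used here do not give the recombinase, the ages or the number of mice, nor whether the libraries within a group are from different mice. The p-values therefore measure only the spread between these libraries, which may be technical. The comparison asks how tumour cells of unequal autophagic flux differ. Sample titles and design text disagree on which group had the high flux (GFP-positive in the former, GFP-negative in the latter), so groups are named by GFP here and each change is GFP-negative minus GFP-positive.

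Libraries held 51994432 to 73997175 counts. One stood apart: GFP-positive replicate 1 had counts for 34.2% of the symbols, against 88.5% to 99.3% in the other 3. Of 12 neuroendocrine markers, 3 were at 0 in it and 6 more were under 1 CPM. Levels are CPM, counts scaled to each library's size after TMM normalization, with replicate 1 of a group always given before replicate 2, and the GFP-positive group before the word "against". Summed over 16 macrophage and myeloid markers they were 121291 and 69973 CPM in GFP-positive cells against 1266 and 23476 CPM in GFP-negative cells. Erythroid markers summed to 45562 and 14336 against 1573 and 5395 CPM, and hepatocyte markers to 27262 and 159 against 23.5 and 319 CPM. The neuroendocrine markers summed to 3463 and 1579 CPM in GFP-positive cells against 5330 and 3251 CPM in GFP-negative cells. Calca alone gave 3073 CPM of the sum in GFP-positive replicate 1, and without it the sums were 389.9 and 1229 against 2586 and 2762 CPM. The part of these cell mixtures in the results below was not tested. In bulk samples fewer dividing cells and less of a transcript per cell cannot be told apart.

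Promoter sequences are shown for 6 members because many genes of late cell cycle share 2 promoter elements: the cell cycle genes homology region (CHR), read here as TTTGAA or TTCGAA, and the CCAAT box bound by NF-Y. In resting cells CHR promoters are repressed by the DREAM complex, which contains a protein of the RB family. The 6 promoters are those of Birc5 and Cdc20, which had over 1000 counts in all 4 libraries, of Ccnb2, Plk1 and Kif22, which had 0 counts in GFP-positive replicate 1, and of the cargo motor Kif1a. Each shows the 150 bases before the RefSeq start (GRCm38.p6), 5′ to 3′ on the strand of the gene, with every CHR and CCAAT match on either strand in capitals.
Birc5: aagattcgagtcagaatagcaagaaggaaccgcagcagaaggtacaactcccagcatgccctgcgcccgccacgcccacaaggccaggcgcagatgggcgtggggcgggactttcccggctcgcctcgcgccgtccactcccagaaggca
Cdc20: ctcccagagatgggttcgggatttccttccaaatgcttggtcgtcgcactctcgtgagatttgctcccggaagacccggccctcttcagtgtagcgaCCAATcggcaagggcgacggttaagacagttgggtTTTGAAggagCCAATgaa
Ccnb2: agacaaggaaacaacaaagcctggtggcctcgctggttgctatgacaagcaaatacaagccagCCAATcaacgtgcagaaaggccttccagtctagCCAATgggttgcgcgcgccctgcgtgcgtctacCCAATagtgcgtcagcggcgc
Plk1: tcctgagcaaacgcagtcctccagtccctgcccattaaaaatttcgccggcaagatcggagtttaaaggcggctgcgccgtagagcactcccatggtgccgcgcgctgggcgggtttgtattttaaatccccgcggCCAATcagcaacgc
Kif22: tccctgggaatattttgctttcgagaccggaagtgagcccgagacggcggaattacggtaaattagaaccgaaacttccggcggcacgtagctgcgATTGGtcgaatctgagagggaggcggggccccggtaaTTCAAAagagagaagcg
Kif1a: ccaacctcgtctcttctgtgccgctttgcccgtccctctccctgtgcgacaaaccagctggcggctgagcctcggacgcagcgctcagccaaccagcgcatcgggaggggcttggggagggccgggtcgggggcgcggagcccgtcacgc
They lie at chr11:117849087-117849236 on the plus strand (Birc5), chr4:118437344-118437493 on the minus strand (Cdc20), chr9:70421555-70421704 on the minus strand (Ccnb2), chr7:122159285-122159434 on the plus strand (Plk1), chr7:127042421-127042570 on the minus strand (Kif22) and chr1:93101875-93102024 on the minus strand (Kif1a). Cdc20 held 1 CHR and 2 CCAAT matches in this stretch, Ccnb2 3 CCAAT matches, Plk1 1 CCAAT match, Kif22 1 of each, and Birc5 and Kif1a none.

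Over the 250 bases before the first listed start, the RefSeq promoter sequences used here covered 45 of the 49 division genes. Of these, 16 (35.6%) held a CHR match, 28 (62.2%) a CCAAT match and 14 (31.1%) both. Of 27025 promoters of all genes, 17.4% held a CHR match, 34.5% a CCAAT match and 6.21% both. Among the mitotic kinesins 5 of 10 held a CHR match and 6 of 10 a CCAAT match. Among the cargo and other kinesins these were 2 and 5 of 14. The motifs were searched on both strands and can overlap at their ends. A match describes letters only and is no evidence of binding.

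No member passed the test between the groups. Of the 70 members, 69 passed the filter on low counts. The quasi-likelihood test of edgeR, adjusted by Benjamini-Hochberg over all 16301 tested genes at 0.05, called 0 of them, where it called 0.0982% of all genes (0.00613% higher and 0.092% lower in GFP-negative cells). Kif7, a ciliary kinesin of Hedgehog signalling, was left out by the filter. The smallest unadjusted p of a member in edgeR was 0.06, for Kif27, and 0 members were under 0.05 before adjustment, against 3.10% of all tested genes. The adjusted p was 1.0 for every member. DESeq2's Wald test called 1 member higher, Kif15, where it called 0.313% of all genes higher, and 0 members lower. In edgeR without GFP-positive replicate 2, 51 of 69 members were called higher, against 42.7% of all genes; the sparse replicate 1 is then the only GFP-positive library. Without GFP-negative replicate 2, 0 members were called, against 0.00595% of all genes called higher. Log2 changes below are given with a standard error (SE) from the edgeR fit, n = 2 per group.

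The fitted changes leaned upward all the same. They were above 0 for 61 of the 69, with a median log2 change of 1.78, while the median of all tested genes was 0.91 and 68.1% of those lay above 0. Both GFP-negative libraries lay above both GFP-positive libraries for 34 of the 69 members, or 49.3%, against 25.2% of all tested genes. The reverse held for 1 member, Plk3, against 6.63% of all genes. The order of the groups was read in CPM, and for some members it differs on the authors' FPKM. The distance between the members' median and that of all genes was 0.87 in this fit, 0.69 to 1.13 under the other scalings of counts, and 0.55 without GFP-positive replicate 1. These values describe the list and carry no test.

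In GFP-positive replicate 1 the members split into present and nearly absent. There were 8 members with 1873 counts or more (Birc5, Cdc20, Cenpk, Cenpv, Cenpx, Kif1a, Plk2 and Plk3), 19 with 1 to 78 counts and 43 with none. None lay between 78 and 1873 counts. Over all tested genes 64.4% were at 0 in that library, beside 61.4% of members, and 3.56% had 100 to 999 counts. In the other 3 libraries 0, 1 and 4 members were at 0. A limit of 3 counts equals 0.080 CPM in GFP-positive replicate 1, which covers counting error only. The plot of all 70 members shows this column with 8 rows that stand out.

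**Figure D1:**
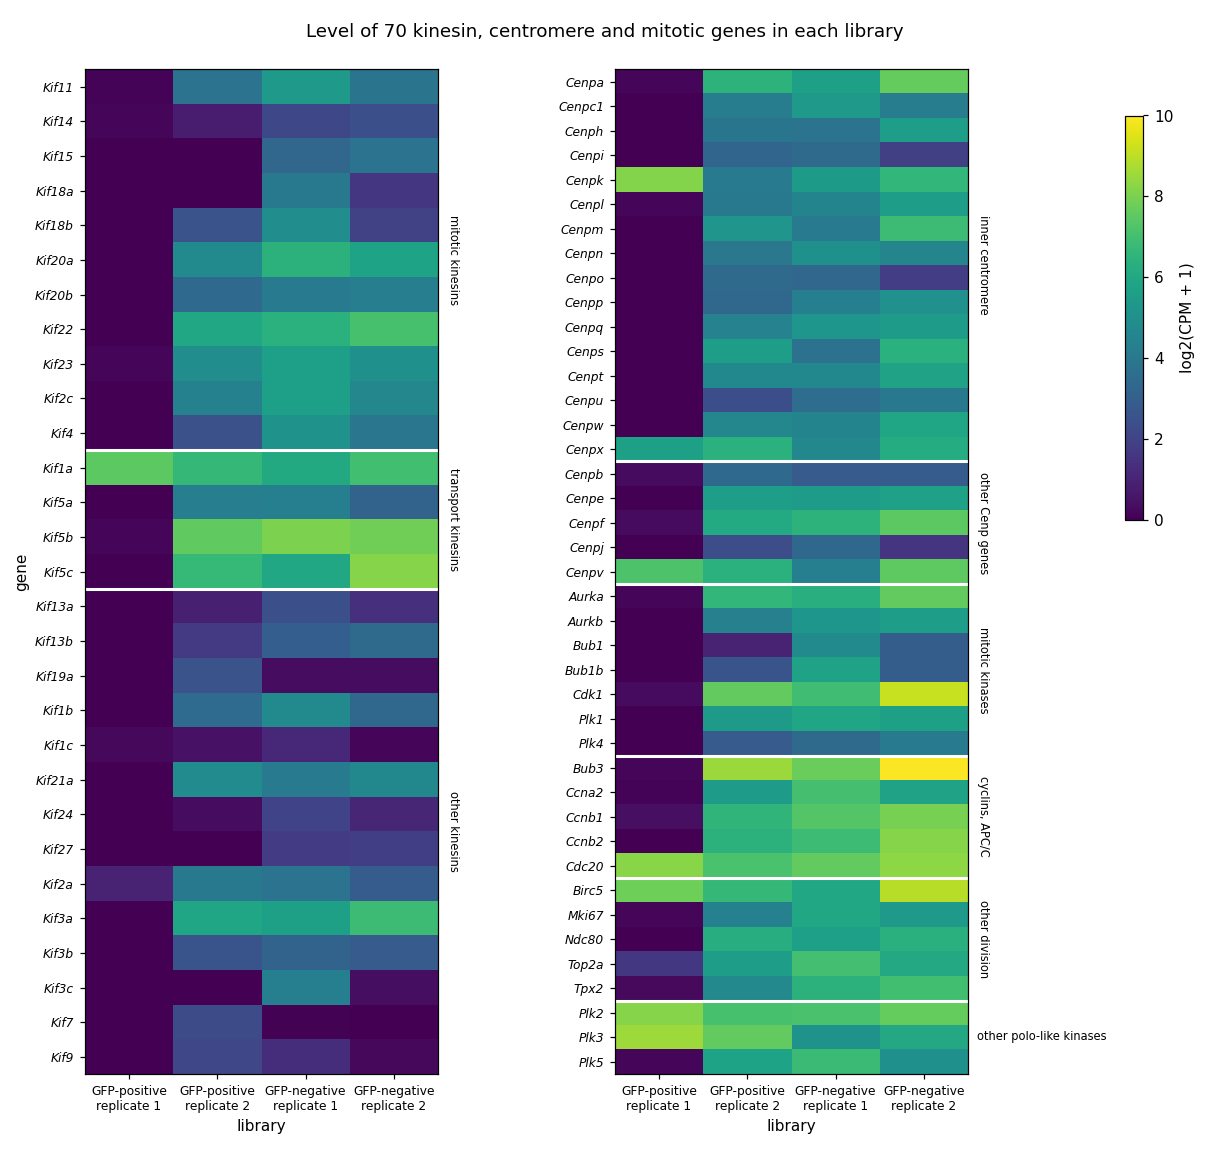
Level of each member, as log2(CPM + 1) in colour, in the 4 libraries (columns), with genes in rows grouped by role. In GFP-positive replicate 1 only 8 of the 70 genes stand out, among them Kif1a, Cdc20 and Birc5, while most genes are seen in the other 3 libraries.

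No mitotic kinesin passed the test. For 10 of the 11 in the table (90.9%) both GFP-negative libraries lay above both GFP-positive libraries, against 25.2% of all tested genes, and all 11 fitted changes were above 0, with a median log2 change of 2.41. All 11 had 0.11 CPM at most in GFP-positive replicate 1, and none stood higher there than in GFP-positive replicate 2. Read against GFP-positive replicate 2 alone, the same 10 must therefore return, and this is no separate check. Of all tested genes 28.9% lay above that library in both GFP-negative libraries. Margins over it were unequal: in GFP-negative replicate 2, Kif11 stood at 13.26 against 13.12 CPM and Kif20a at 55.4 against 26.3 CPM. Kif15 and Kif18a, at 0 in both GFP-positive libraries, are among the 10. Kif18b, the exception, stood at 0 and 4.89 CPM in GFP-positive cells against 28.8 and 2.79 CPM in GFP-negative cells. The 11 do not hold every kinesin that acts in division. Kif2a, Cenpe and Kifc1 were placed in other lists, and their groups overlapped. Kif2a stood at 0.93 and 15.3 against 12.8 and 6.47 CPM, and Cenpe at 0 and 45.9 against 44.1 and 52.2 CPM. Kifc1 stood at 0 and 4.69 against 2.91 and 4.52 CPM.

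Kif15, a spindle motor that works beside Kif11, had 0 counts in both GFP-positive libraries, and its GFP-negative levels were 8.87 and 12.99 CPM. Its group mean was at least 172-fold higher without GFP, with each library at 0 set to a limit of 3 counts. Its groups did not overlap and its GFP-negative libraries stood close together. DESeq2's Wald test gave it an adjusted p of 0.0475, while the adjusted p over its other settings with all libraries reached 1.0, and without single libraries it ran from 0.0212 to 1.0. Kif18a, which limits chromosome movement at the metaphase plate, also had 0 counts in both GFP-positive libraries, but its GFP-negative levels were 15.3 and 2.03 CPM. Its mean was at least 137-fold higher. The GFP-negative libraries thus differed 7.57-fold for Kif18a. Both genes passed the filter through the GFP-negative group alone, so a difference in that direction was a condition of their being tested. Kif15 lies at chr9:122951046-123018733 and Kif18a at chr2:109280738-109341747 (mm10, GENCODE M21), where exons of Mettl15 (0 and 13.1 against 12.1 and 0.93 CPM) overlap Kif18a on the other strand.

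Kif4, a chromosome-bound motor of the anaphase midzone, had 0 and 4.52 CPM in GFP-positive cells against 33.3 and 14.1 CPM in GFP-negative cells (log2 change 3.39 ± 4.79 SE). Kif14, a motor of cytokinesis, stood at 0.11 and 0.74 against 3.53 and 4.43 CPM (3.23 ± 4.48, and -0.62 under upper quartile scaling). Exons of Pdzd11 (0.11 and 76.6 against 52.9 and 114 CPM) overlap Kif4 on the other strand. In Kif4 and Kif14 each GFP-negative library lay above each GFP-positive library, and the SE exceeded the change. The remaining mitotic kinesins (Kif2c, Kif11, Kif20a, Kif20b, Kif22 and Kif23, besides Kif18b) reached 0.11 CPM at most in GFP-positive replicate 1 and 4.89 to 60.8 CPM in replicate 2. Their GFP-negative levels ran from 16.1 to 83.9 CPM in replicate 1 and from 2.79 to 136 CPM in replicate 2.

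Among the cargo motors this order held for 1 of 4, Kif5b, or 25.0% against 25.2% of all tested genes, and the difference from the mitotic kinesins was not tested. Kif1a, which carries synaptic vesicle precursors and dense-core vesicles, was present in each of the 4 libraries, with 177 and 101 CPM in GFP-positive cells against 65.6 and 125 CPM in GFP-negative cells. The groups overlapped (log2 change -0.54 ± 2.49), and the highest library was 2.70 times the lowest. On the authors' FPKM, a value per gene length without the TMM scaling used here, Kif1a stood at 12.3 and 8.78 against 9.50 and 11.2. The highest library was then 1.40 times the lowest. The TMM factors in the CPM were 0.722 and 0.944 against 1.54 and 0.956, and a correction for length does not change 1 gene's ratio between libraries. Kif1a lies at chr1:93015464-93101951.

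Kif5b, the broadly expressed heavy chain of conventional kinesin, had 0.11 and 189 CPM in GFP-positive cells against 262 and 228 CPM in GFP-negative cells (log2 change 1.37 ± 2.19). Kif5c, a neuronal heavy chain, had 0 and 104 against 60.4 and 293 CPM (1.76 ± 2.58), so its GFP-negative libraries lay on either side of GFP-positive replicate 2. Kif5a, also neuronal, had 0 and 18.5 against 18.9 and 8.10 CPM (0.55 ± 4.41) and a log2 change of -0.46 without GFP-positive replicate 1 and -0.19 without GFP-negative replicate 1. Kif5b and Kif5c were at 4 and 0 counts in the library where Kif1a had 6647. Exons of AC113003.1 and Gm17036 overlap Kif5b on the other strand.

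Summed over genes on the authors' FPKM scale, the 11 mitotic kinesins stood at 0.019 and 26.0 in GFP-positive cells against 106 and 49.4 in GFP-negative cells. The 4 cargo motors summed to 12.3 and 42.0 against 69.0 and 69.9. The mitotic sum was 0.0015 and 0.62 times the cargo sum in the GFP-positive libraries, and 1.53 and 0.71 times in the GFP-negative libraries. By sums the mitotic motors outweighed the cargo motors in GFP-negative replicate 1 alone. By the median gene they did so in none: the median log2(FPKM + 1) of mitotic minus cargo motors was -0.0061 and -2.40 in GFP-positive cells against -0.32 and -2.48 in GFP-negative cells. Without Kif5b, the most abundant cargo motor by mean FPKM, the cargo sum was 22.7 in GFP-positive replicate 2 and 24.6 and 46.2 in the GFP-negative replicates, and the mitotic sum was then the larger in these 3 libraries. No test was made of the sums, since an exact permutation of 2 against 2 libraries cannot fall below 0.05.

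**Figure D2:**
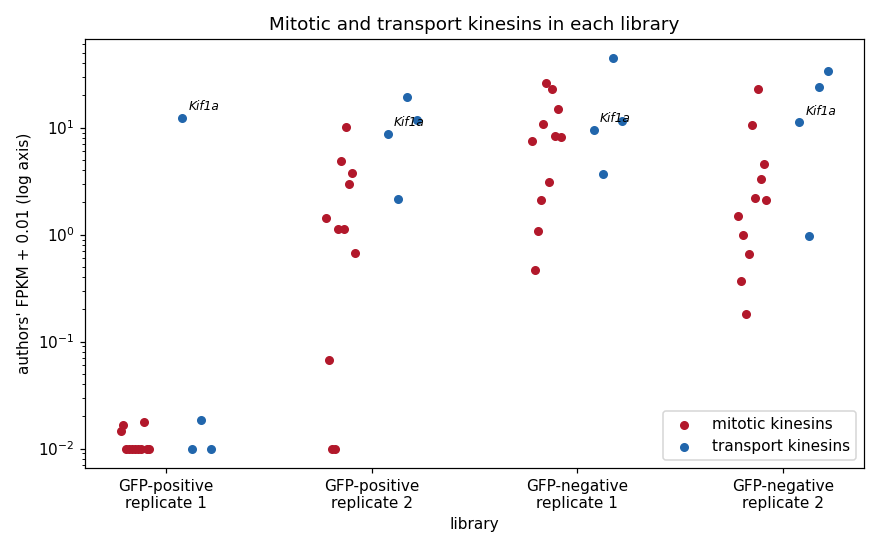
The authors' FPKM plus 0.01 on a log axis for each of the 11 mitotic kinesins (red) and 4 cargo motors (blue) in the 4 libraries. In GFP-positive replicate 1 Kif1a stands near 12 FPKM while every other gene shown lies near the bottom of the axis.

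Of the 14 other kinesins, 13 were tested, 11 had a fitted change above 0, where 68.1% of all tested genes did. In 6 of the 13 (46.2%) both GFP-negative libraries lay above both GFP-positive libraries, against 25.2% of all tested genes. Kif27, a relative of Kif7, had no counts in GFP-positive cells and levels of 2.45 and 2.63 CPM in GFP-negative cells, at least 40.0-fold higher in the mean. Kif3c, a subunit of heterotrimeric kinesin-2, was also at 0 in both GFP-positive libraries, and its GFP-negative levels were 18.9 and 0.29 CPM. A single library thus carried Kif3c, whose mean was at least 151-fold higher. Exons of 1110002L01Rik overlap Kif3c on the other strand, and 1110002L01Rik had 0 and 0.78 against 13.4 and 0.65 CPM, also highest in GFP-negative replicate 1. Gm26555, which overlaps Kif27 in the same way, had 0 and 0 against 0.12 and 2.39 CPM. Reads in such overlaps cannot be told apart without strand. These genes, too, were tested only because the GFP-negative group had counts.

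Kif24, which acts on centriolar microtubules, stood at 0 and 0.25 CPM in GFP-positive cells against 3.02 and 1.08 CPM in GFP-negative cells (log2 change 3.999 ± 4.08). Kif19a, a kinesin of motile cilia, had a fitted change below 0, with 0 and 4.94 against 0.25 and 0.26 CPM (-3.29 ± 4.13). It was 0 in GFP-positive replicate 1, so its groups overlapped. Kif7 had 0 and 3.87 CPM in GFP-positive cells against 0.053 and 0 CPM in GFP-negative cells. Exons of Ticrr overlap Kif7 on the other strand. Kif3a, another kinesin-2 subunit, stood at 0 and 59.2 against 50.0 and 116 CPM. It and Kif13a, Kif13b, Kif1b, Kif1c, Kif21a, Kif2a, Kif3b and Kif9 each reached 0.93 CPM at most in GFP-positive replicate 1.

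Among the 16 genes of the inner centromere, which are Cenpa and the network that sits on it, 14 had fitted changes above 0 (median log2 change 1.72). In CPM 5 had both GFP-negative libraries on top, 31.2% against 25.2% of all tested genes. The groups of Cenph, Cenpt and Cenpw overlapped in CPM but not on the authors' FPKM, for which no share over all genes is given. Cenpa, the histone variant that marks the centromere, had 0.11 and 87.5 CPM in GFP-positive cells against 50.5 and 200.1 CPM in GFP-negative cells (log2 change 1.52 ± 2.86). Cenpu had 0 and 4.33 against 11.02 and 15.6 CPM (2.62 ± 4.72), and Cenpp 0 and 9.04 against 19.0 and 32.5 CPM (2.51 ± 4.58). In Cenpu and Cenpp the groups did not overlap. On the other strand, Primpol overlaps Cenpu (0 and 1.55 against 8.93 and 0 CPM) and Ippk overlaps Cenpp (114 and 9.005 against 67.1 and 3.18 CPM). Cenpm stood at 0 and 36.6 against 17.0 and 114 CPM (1.84 ± 3.77), so its lower GFP-negative library lay under GFP-positive replicate 2.

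Cenpk and Cenpx, which belong to different subcomplexes of this network, were the only genes of the 16 with more than 5 counts in GFP-positive replicate 1, a reading made after their values were seen. Cenpk was highest there, at 279 CPM, and stood at 15.9 CPM in the other GFP-positive library and at 43.1 and 98.6 CPM without GFP. Its direction depends on that library, with a log2 change of -1.06 ± 2.58 in all 4 libraries and 2.15 without it. Cenpx had 49.9 and 83.7 against 24.8 and 71.5 CPM. Their partners Cenph and Cenpi (for Cenpk) and Cenps (for Cenpx) were at 0 counts in the same library. Subunits of one complex were thus not present or at 0 together in this 1 sparse library. In it 64.4% of all tested genes were at 0. Exons of Ppwd1 overlap Cenpk on the other strand, and Ppwd1 had 0 counts in GFP-positive replicate 1.

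Of the other Cenp genes, Cenpf, a large protein of the outer kinetochore, had 0.21 and 67.6 CPM in GFP-positive cells against 87.1 and 177 CPM in GFP-negative cells (1.96 ± 2.93). Cenpe, itself a kinesin that carries chromosomes to the spindle equator, had 0 and 45.9 against 44.1 and 52.2 CPM (1.07 ± 3.86), and the 3 libraries with counts stood close together. Cenpj, a centriole protein, stood at 0 and 4.19 against 9.19 and 1.92 CPM (1.41 ± 4.46). Cenpb, which binds satellite DNA, stood at 0.24 and 9.55 against 6.31 and 6.44 CPM (0.38 ± 4.46, and -0.59 without GFP-positive replicate 1). Cenpv, present in all libraries, had 148 and 83.1 against 19.2 and 182 CPM, so the GFP-negative pair spanned the GFP-positive pair.

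All 7 kinases of division had fitted changes above 0, with a median log2 change of 2.07, where 68.1% of all tested genes were above 0, and none passed the test. In 5 (71.4%) both GFP-negative libraries lay on top, against 25.2% of all tested genes. Each had 8 counts or fewer in GFP-positive replicate 1. Bub1, a checkpoint kinase of the kinetochore, had 0 and 0.94 CPM in GFP-positive cells against 26.5 and 6.64 CPM in GFP-negative cells (log2 change 5.13 ± 5.29, and 4.13 without GFP-positive replicate 1). Bub1b, which encodes the checkpoint protein BubR1, had 0 and 5.04 against 53.8 and 6.71 CPM (3.58 ± 4.77). For both genes GFP-negative replicate 1 stood far above replicate 2, and Bub1b in replicate 2 was close to GFP-positive replicate 2.

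Plk1, the polo-like kinase of mitotic entry and spindle assembly, had 0 and 42.5 CPM in GFP-positive cells against 57.4 and 50.7 CPM in GFP-negative cells (1.35 ± 3.82, and 0.34 without GFP-positive replicate 1). The GFP-negative libraries lay little above GFP-positive replicate 2. Exons of Gm44985 overlap Plk1 on the other strand. Aurkb, the kinase of the chromosomal passenger complex, had 0 and 19.6 against 36.8 and 47.5 CPM (2.103 ± 4.25). Aurka, the kinase of centrosomes and spindle poles, had 0.11 and 96.5 against 77.9 and 192 CPM (1.48 ± 2.77). Cdk1, the kinase that cyclin B activates, had 0.21 and 194 against 122 and 576 CPM (1.84 ± 2.02). For Aurka and Cdk1 one GFP-negative library lay below GFP-positive replicate 2 in CPM, so their groups overlapped on that scale. On the authors' FPKM the groups did not overlap. Aurka stood there at 0.027 and 30.9 against 41.6 and 63.0, and Cdk1 at 0.027 and 31.9 against 33.4 and 97.0. Plk4, which starts centriole duplication, had 0 and 6.29 against 10.1 and 16.3 CPM (2.07 ± 4.62).

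The mitotic cyclins kept the order of the groups. Ccnb1 had 0.32 and 91.7 CPM in GFP-positive cells against 158 and 247 CPM in GFP-negative cells (log2 change 2.14 ± 2.54, and 1.14 without GFP-positive replicate 1). Ccnb2 had 0 and 85.4 against 116 and 289 CPM (2.25 ± 2.56). Ccna2, the cyclin of S phase and early mitosis, had 0.080 and 44.8 against 131 and 53.2 CPM (2.04 ± 3.40). In all 3 both GFP-negative libraries were on top, though Ccna2 in GFP-negative replicate 2 was near GFP-positive replicate 2. Counted with Cdc20 and Bub3, whose groups overlapped in CPM, this was 3 of 5 genes (60.0%), against 25.2% of all tested genes. Exosc9, whose exons overlap Ccna2 on the other strand, had 240.1 and 51.0 against 49.7 and 106 CPM. GENCODE names pseudogenes of Ccnb1 and Ccnb2, as of Kif4 and Kif22, and reads shared with them are uncertain.

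Cdc20, which activates the anaphase-promoting complex and is the target of the checkpoint, did not follow this order in CPM. It stood at 300 and 139 CPM in GFP-positive cells against 194 and 315 CPM in GFP-negative cells (log2 change 0.21 ± 1.92, -0.24 without GFP-positive replicate 2, -0.10 without GFP-negative replicate 2 and -6.15 under upper quartile scaling). On the authors' FPKM Cdc20 stood at 103.6 and 60.3 against 140.2 and 140.3, with both GFP-negative libraries on top. By either measure it was high in the library with 0 counts of Plk1, Ccnb2 and Aurkb. Cdc20 lies at chr4:118432901-118437352, where exons of Elovl1 overlap it on the other strand. Elovl1, a fatty acid elongase, had 688 and 188 against 58.3 and 246 CPM, and without strand the 2 genes' reads cannot be told apart where they overlap. Bub3, the checkpoint protein that binds Bub1 and BubR1, had 0.13 and 364 against 211 and 972 CPM (1.70 ± 1.68), the widest gap between the GFP-negative libraries among these 5 genes.

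Of the other division genes, Mki67, which encodes the proliferation antigen Ki-67, had 0.11 and 19.8 CPM in GFP-positive cells against 60.5 and 41.7 CPM in GFP-negative cells. Top2a, the DNA topoisomerase of chromosome condensation, had 2.08 and 47.2 against 127.7 and 64.6 CPM. Tpx2, which activates Aurora A on the spindle, stood at 0.19 and 25.0 CPM against 85.2 and 123 CPM (log2 change 3.05 ± 3.51, and 2.05 without GFP-positive replicate 1). In these 3 of the 5 other division genes (60.0%) the GFP-negative libraries lay above both GFP-positive libraries, against 25.2% of all tested genes. The direction of Top2a turned under upper quartile scaling (-0.69). Ndc80, the microtubule-binding subunit of the outer kinetochore, had 0 and 73.8 against 49.3 and 80.2 CPM (0.81 ± 3.44, and -0.19 without GFP-positive replicate 1). Its groups overlapped in CPM but not on the authors' FPKM, at 0 and 9.21 against 10.26 and 10.27.

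Birc5, which encodes survivin of the chromosomal passenger complex, had 221 and 99.5 CPM in GFP-positive cells against 62.3 and 484 CPM in GFP-negative cells (0.77 ± 1.98, -1.29 without GFP-negative replicate 2 and -5.54 under upper quartile scaling). Its GFP-negative libraries were the lowest and the highest of the 4. Aurkb, the kinase of the same complex, was at 0 counts where Birc5 had 8290. Birc5 lies at chr11:117849251-117855743 and shares no exon bases with a gene on the other strand.

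Of the 3 polo-like kinases with main roles outside mitosis, 1 had a fitted change above 0 and 2 below, and none passed the test. Plk3, a stress-responsive kinase, was the only member with both GFP-negative libraries below both GFP-positive ones, at 367 and 194 CPM in GFP-positive cells against 34.2 and 65.0 CPM in GFP-negative cells. Its log2 change was -2.50 ± 2.30 with an adjusted p of 1.0 in edgeR, and it was -1.97 without GFP-positive replicate 1. Plk2, also induced by stress and by neuronal activity, stood at 289 and 135 against 140 and 199 CPM (-0.32 ± 2.05, 0.27 under library totals and 0.32 without GFP-positive replicate 1), and its highest library was 2.14 times its lowest. Plk5, described mainly in brain, had 0.11 and 54.8 against 113 and 31.3 CPM (1.40 ± 3.51). Plk3 lies at chr4:117128655-117133963, where exons of Tctex1d4 overlap it on the other strand.

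Other genes of mitosis were read from a list that does not overlap the members. Of 57 tested, 0 passed the test in either direction and 55 had fitted changes above 0 (median log2 change 1.87), where 68.1% of all tested genes did (median 0.91). In 33 (57.9%) both GFP-negative libraries lay above both GFP-positive libraries, against 25.2% of all tested genes. The members of that list with the smallest unadjusted p were Ncapg, a condensin subunit, at 0 and 1.30 against 56.7 and 11.7 CPM (5.71 ± 5.25), and Cdca8, the borealin gene of the passenger complex, at 0 and 89.1 against 116 and 327 CPM (2.32 ± 2.49). In GFP-positive replicate 1, 43 of the 57 were at 0. Zwint, Pmf1, Ube2c and Cks1b, named after their values were seen, had 136 to 384 CPM there.

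GFP-positive replicate 2, which had counts for 66 of the 70 members, gives a view of the members without the sparse library. GFP-negative replicate 1 was above it for 45 of the 70 and GFP-negative replicate 2 for 53. Over all tested genes these shares were 53.7% and 47.3%. Both were above it for 37, or 52.9%, against 28.9% of all tested genes, and for 29 of the 49 division genes. The 34 members whose GFP-negative libraries lay above both GFP-positive libraries must be among these 37, so this is no separate check of that order. The median log2 difference of division genes from GFP-positive replicate 2, on log2(CPM + 1), was 0.68 in GFP-negative replicate 1 and 1.12 in replicate 2. Over all tested genes these were 0.13 and -0.09. With 1 GFP-positive library left these are descriptions.

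**Figure D3:**
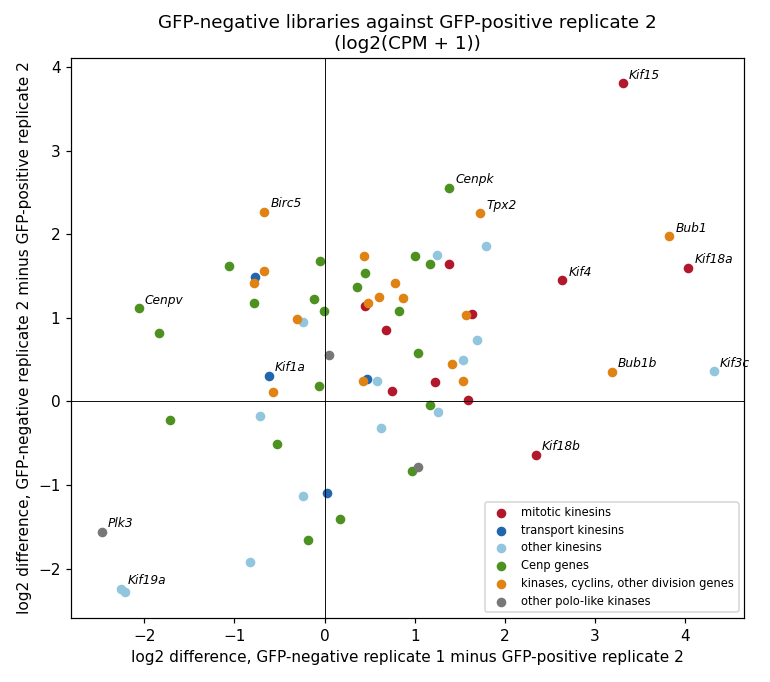
Each point is a member, with its log2 difference in CPM + 1 from GFP-positive replicate 2, for the first GFP-negative library on the horizontal axis and the second on the vertical axis. The upper right quadrant holds the 37 members above GFP-positive replicate 2 in both GFP-negative libraries, with Kif15, Kif18a, Kif3c and Bub1 among those far from the origin, and Plk3 and Kif19a lie at the lower left.

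The GFP-negative libraries divided the members between them. Replicate 1 was higher for 30 of the 70 and for 7 of the 11 mitotic kinesins, where it was higher for 55.4% of all tested genes. Replicate 2 was higher for 12 of the 16 inner centromere genes. In replicate 1, Kif3c was 66.2 times, Kif18b 10.3 times, Bub1b 8.01 times and Kif18a 7.57 times its level in replicate 2. In replicate 2, Cenpv was 9.47 times, Birc5 7.77 times, Cenps 6.71 times, Cenpm 6.70 times and Cdk1 4.72 times its level in replicate 1. For Birc5 and Cenpv the GFP-negative libraries lay on either side of both GFP-positive libraries.

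Gene length moved with this split, a relation looked for after the values were seen. Among the 70 members, which share libraries and depth, Spearman's rho of exon length (GENCODE M21, 1077 to 17608 bases) with the log2 difference of GFP-negative replicate 1 minus replicate 2 was 0.33. Across 15933 tested genes with an annotated length it was 0.41. Of the 35 shorter members replicate 1 was higher in 12, and of the 35 longer ones in 18, split at their median of 4918.5 bases. Over all these genes, split at 3749 bases, it was higher in 3184 of 7968 shorter and 5682 of 7965 longer genes. Against GFP-positive replicate 2, the rho with length among members was 0.31 for the difference of GFP-negative replicate 1 (0.34 over all genes) and -0.05 for that of GFP-negative replicate 2 (-0.14 over all genes). The part of length in the results was not tested further.

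**Figure D4:**
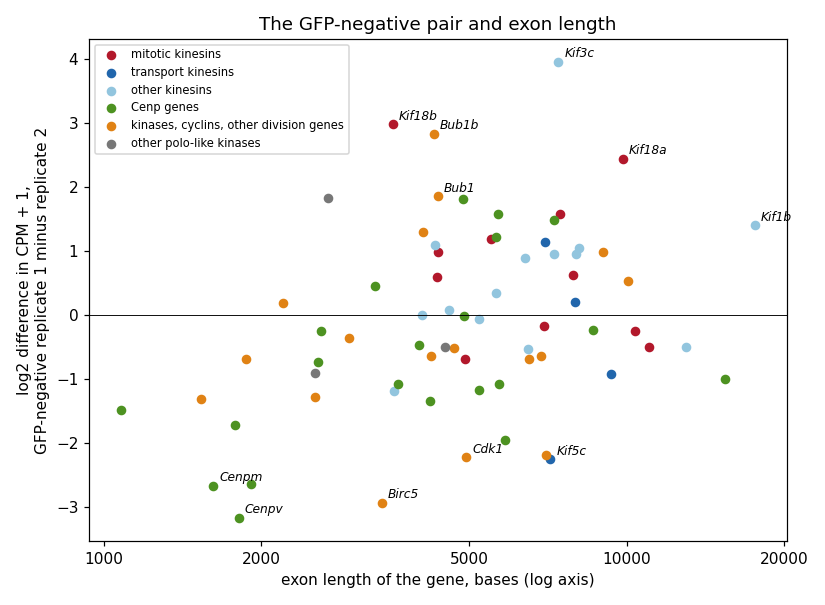
Exon length of each member in bases (log axis) against its log2 difference in CPM + 1, GFP-negative replicate 1 minus replicate 2, coloured by role. The short genes Cenpm and Cenpv lie below 0, and Kif3c, Kif18b, Bub1b and Kif18a lie highest. Of these, Kif18b (3572 bases) and Bub1b (4275 bases) are shorter than the members' median of 4918.5 bases.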

How the data were processed

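Full-length cDNA, per the protocols in the labels, was primed with oligo(dT), amplified by PCR and sequenced; as described, neither strand nor molecules are marked. The authors deposited whole-number counts and FPKM values, per the file headers, 1 column of each per library and 1 row per gene symbol. The submitters' processing notes name cutadapt 1.9, HISAT2 2.2.1, StringTie 2.1.6, DESeq2 and edgeR with the build mm10; the annotation release is not given in the sources used here. Libraries held 51994432, 67536465, 73997175 and 69676412 counts. Their TMM factors, in the same order, were 0.722, 0.944, 1.54 and 0.956.

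Counts were fitted for the whole table in R 4.3.3 with edgeR 4.0.16 (filterByExpr, minimum count 10; TMM; glmQLFit and glmQLFTest; group as the only term; Benjamini-Hochberg threshold 0.05), and members were read from that fit. The SE is the absolute log2 change over the square root of F. The scripts were tested on simulated counts. limma 3.58.1 was used on log2(FPKM + 1) and log2(FPKM + 0.1), and DESeq2 1.42.0 as an alternative. Pairwise differences between libraries used log2(CPM + 1). All 70 members matched 1 gene of GENCODE M21, and 19 share exon bases with a gene on the other strand.

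The members and lists were chosen with earlier results of these data known. Values were given for the singly named genes, the cargo motors, and in each other role up to 4 tested members with the smallest unadjusted p; Kif3a, Kif7, Kif18b, Plk4, Cenpk, Cenpv and Cenpx, the promoter motifs and the length relation were chosen after the values were seen. Marker lists were also summed in CPM, GFP-positive first: lymphocyte 429 and 1536 against 1160 and 3370, erythroid 45562 and 14336 against 1573 and 5395, hepatocyte 27262 and 159 against 23.5 and 319, endothelial 396 and 5.19 against 92.2 and 27.0. Alternatives were a replicate block, no filter, other scalings, the tools above, only genes with counts in all 4 libraries, a threshold of 0.1 and leaving out each library. Replicate numbers did not pair the samples.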

Additional observations from a re-analysis of the deposited data

How the results depend on the processing

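The count of members called was 0 in edgeR's main setting, 1 with DESeq2's Wald test and 51 of 69 (73.9%) without GFP_positive replicate 2, where 42.7% of all genes tested were called higher, so leaving out single libraries gave 0 to 51; it was 0 in every other alternative run. For the other mitosis genes it was 0, and 0 to 50 without single libraries. Calls over all genes numbered 16, against 0 under upper quartile scaling, 63 with DESeq2's Wald test, 42 with limma on log2(FPKM + 0.1), 5 when only genes seen in all 4 libraries were fitted, and 1 to 7601 without single libraries (1 without GFP_positive replicate 1, 7601 without GFP_positive replicate 2, 59 without GFP_negative replicate 2). With 1 library left in a group, it is assumed to vary like the other group.

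The replicate block gave 0 members called and 21 genes in all; deviations of same-numbered libraries from their group means correlated at -0.07 across 16301 genes, so the numbers were not taken to pair the samples. Under the block Kif19a turned to 0.57. Of the 39 members that the naming rule chose, 28 kept their direction in every alternative run for them: 13 of these in all 13 alternatives, and 15 in 12, since the fit of genes with counts in all 4 libraries does not hold them. Log2 changes that turned were, under upper quartile scaling, -0.69 for Top2a, -6.15 for Cdc20, -5.54 for Birc5, -0.62 for Kif14 and -1.57 for Cenpb; for Plk2 0.27 under library totals and 0.30 and 0.31 with limma on FPKM plus 1 and 0.1. Without single libraries the ranges of genes that turned were -0.24 to 0.87 for Cdc20, -1.29 to 1.59 for Birc5, -0.19 to 15.20 for Ndc80, -0.46 to 12.94 for Kif5a, -4.30 to 7.20 for Kif19a, -0.12 to 15.21 for Cenpm, -0.13 to 11.66 for Cenpj, -0.59 to 4.72 for Cenpb and -0.77 to 0.32 for Plk2. Of the members named after their values were seen, Cenpk ran from -1.98 to 2.15, Cenpv from -2.52 to 0.65 and Cenpx from -1.40 to 0.097. The cause of these shifts was not tested.

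The log2 ratio of mitotic to cargo kinesin FPKM was -9.33 and -0.69 in the GFP-positive and 0.62 and -0.50 in the GFP-negative libraries. As a difference of medians of log2(FPKM + 1) it was -0.0061 and -2.40 in GFP-positive cells against -0.32 and -2.48 in GFP-negative cells. Without Kif5b it was 0.20 in GFP-positive replicate 2 and 2.11 and 0.096 in the GFP-negative libraries. For members at 0 counts in both GFP-positive libraries, counting gives a lower bound of the fold only.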
